A study of Mus musculus with 9 samples.

Results

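The transcription factors that define hepatocytes were followed in mouse liver, as the 9 genes *Hnf4a*, *Foxa1*, *Foxa2*, *Foxa3*, *Cebpa*, *Cebpb*, *Onecut1*, *Onecut2* and *Prox1*. They were chosen by name as factors of hepatocyte identity, with earlier results of these data known, and all 9 were found among the 19329 gene symbols of the deposited tables. The livers came from 9 mice of the inbred strain C57BL/6J. In 4 of them a high-sucrose diet (HSD) was given for 3 weeks, starting at 8 weeks of age, the other 5 stayed on chow (Chow), and all were sampled at 11 weeks. Each library is 1 animal, so the spread within a diet is a spread between mice, and no source used here gives their sex. The study used this diet as a model of fatty liver and asked which transcription factors stand behind the genes that change with it. The question here was whether the genes of the hepatocyte factors themselves differed in RNA level between the diets, and how they varied from liver to liver.

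These factors work as a network. HNF4A, a nuclear receptor, and the C/EBP proteins, basic leucine zipper factors, occupy promoters and enhancers of most genes by which hepatocytes secrete plasma proteins and handle lipid, glucose and nitrogen, while the FOXA proteins bind their sites in closed chromatin and open the way for other factors. The ONECUT and PROX1 homeodomain factors act in the specification and growth of the liver bud and remain on in adult hepatocytes, and many members bind to each other's genes.

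The libraries held 12769668 to 25913869 estimated counts, and 12091 genes, all 9 factors among them, passed the filter on low counts. Hepatocyte markers checked the tissue. Albumin, *Alb*, lay between 74883 and 103130 CPM (a count scaled to library size, with TMM normalization) in HSD livers and between 44370 and 98228 CPM in Chow livers, whereas the pancreatic and intestinal genes *Cpa1*, *Pdx1* and *Cdx2* had no count in any library. Of the other markers of these tissues, *Cela1* and *Lgals4* had counts in every library. *Cela1* had 6.88 to 13.65 CPM in HSD livers and 13.71 to 23.9 CPM in Chow livers. It was called lower on HSD (edgeR adjusted p = 0.0292), in 3 of 9 fits with 1 liver left out. *Lgals4* had 1.37 to 4.90 CPM in HSD livers and 4.99 to 10.6 CPM in Chow livers (edgeR adjusted p = 0.0880). None of the 10 hepatocyte, 7 cholangiocyte, 4 lymphatic endothelial and 8 Kupffer cell markers tested differed between the diets at an adjusted p under 0.05. Their median log2 fold changes, HSD over Chow, were -0.21, 0.36, 0.25 and -0.59 in this order (all genes -0.0039). Of the 8 Kupffer cell markers 0 had a change above 0, and 4 had an unadjusted p under 0.05 in edgeR (23.7% of all genes). The 8 Kupffer cell markers summed to 97.5 to 199 CPM in HSD livers and 153 to 356 CPM in Chow livers, and HSD 4 was the lowest. Chow 1 stood apart by its acute phase genes, as *Saa1*, which encodes serum amyloid A, had 8306 CPM there and 8.64 to 107 CPM in the other livers. Changes of the 9 factors were therefore also computed without Chow 1 and HSD 4, a choice made after seeing the data. In RNA from whole liver, fewer cells of a type and less RNA per cell cannot be told apart.

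On a scale corrected for transcript length (TPM, in which all transcripts of a library share a fixed sum), *Hnf4a* and *Cebpa* were by far the most abundant of the group. Averaged over the 9 livers, *Hnf4a* had 201 TPM and *Cebpa* 164 TPM, followed by *Foxa3* with 35.7, *Cebpb* with 20.6, *Prox1* with 20.3, *Onecut1* with 16.1, *Foxa2* with 15.8, *Foxa1* with 6.95 and *Onecut2* with 6.09 TPM. *Hnf4a* and *Cebpa* together made up 76.6 to 78.5% of the summed TPM of the 9 genes in HSD livers and 69.1 to 76.0% in Chow livers. Of neighbours in this order, only *Cebpa* and *Foxa3* had ranges that did not overlap over the 9 livers. *Hnf4a* exceeded *Cebpa* in 7 of 9 livers, *Cebpb* exceeded *Prox1* in 5, and *Onecut1* exceeded *Foxa2* in 4, so the middle of the order was not fixed.

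**Figure D1:**
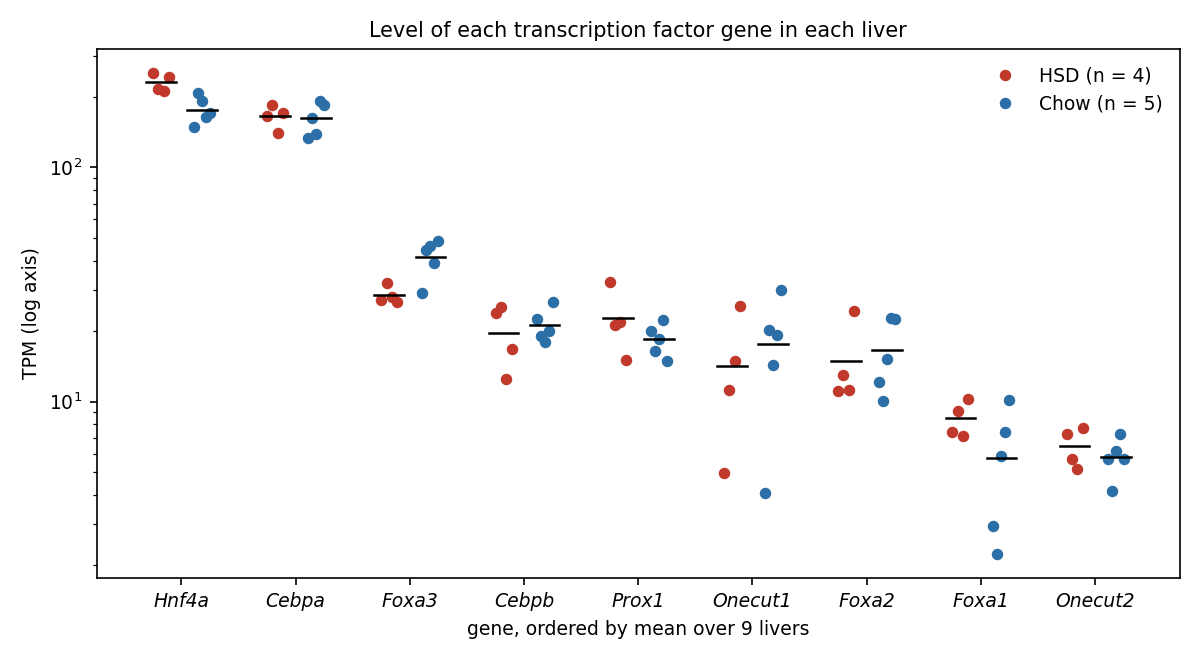
TPM of each gene (log axis) in the 4 HSD livers (red, left) and the 5 Chow livers (blue, right), with a black line at each mean. *Hnf4a* and *Cebpa* have 133 TPM or more in every liver, the other genes at most 48.7 TPM. The diets do not overlap in *Hnf4a*, and in *Foxa3* Chow 1 lies among the HSD livers.

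Between the diets, 1 of the 9 factors, *Foxa3*, was lower on HSD and none was higher at an adjusted p under 0.05 (edgeR's quasi-likelihood test, Benjamini-Hochberg over 12091 genes). Over all genes tested, 3.44% were higher, 3.23% were lower and 6.67% were either, so the count among the 9 factors was near the share of all genes. The same gene was the only one of the 9 with an unadjusted p under 0.05 (23.7% of all genes) and the only one whose CPM ranges did not overlap between the diets (11.3% of all genes). DESeq2 and limma voom each likewise called 0 of the 9 higher and 1 lower. The median log2 fold change was -0.08 over the 9 factors and -0.0039 over all genes, and 3 of the 9 were above 0. The 95% interval of the change was narrow for *Cebpa* (-0.36 to 0.20 on the log2 scale) and *Hnf4a* (-0.03 to 0.48). It was wide for *Onecut1* (-1.44 to 0.71) and *Foxa1* (-0.46 to 1.01). The interval of *Onecut1* did not exclude large changes in either direction, and that of *Foxa1* reached further above 0 than below.

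**Figure D2:**
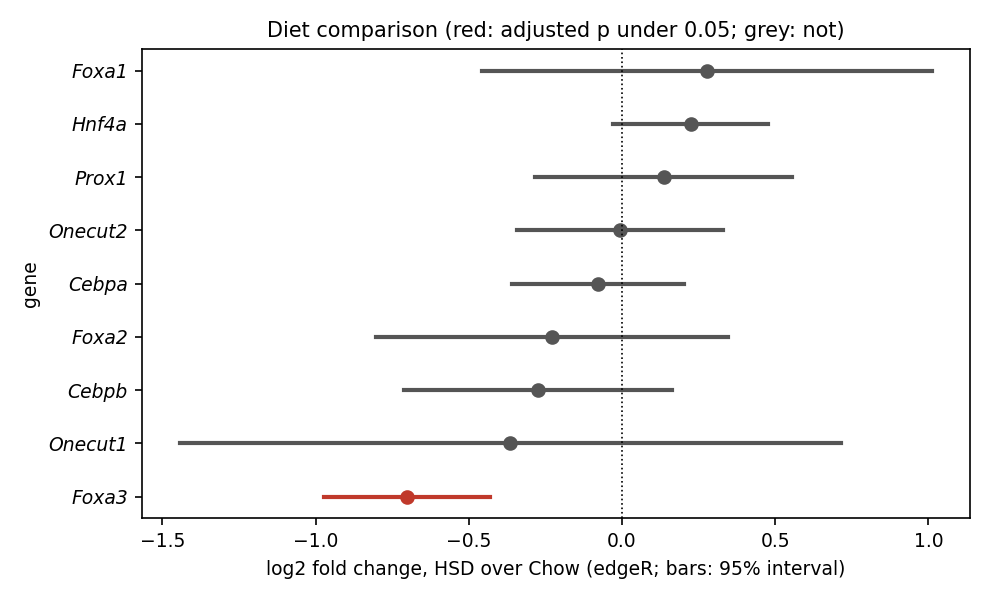
Log2 fold change of each gene, HSD over Chow, from edgeR (points) with its 95% interval (bars), red where the adjusted p was under 0.05 and grey where it was not. The interval of *Foxa3*, -0.97 to -0.43, is the only one that lies wholly on 1 side of 0.

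The FOXA genes encode forkhead factors with nearly the same DNA-binding domain, and *Foxa3* is the family member with the highest level in adult liver. *Foxa3* lies on chromosome 7 (chr7:19013284-19023538, minus strand, GRCm38) with 1 annotated transcript, *Foxa1* on chromosome 12 (chr12:57540628-57546916, minus strand) and *Foxa2* on chromosome 2 (chr2:148042877-148046969, minus strand). The 250 bases before each start site, from RefSeq on GRCm38.p6, are shown because *Foxa3* was the one factor past the test below and the others are its paralogs. The *Foxa1* stretch lies inside the gene span given above, which is from GENCODE, because the RefSeq start it precedes lies within that span. Capitals mark matches, on either strand, to the GC box GGGCGG, the forkhead motif TGTTTAC and the ONECUT core ATTGAT.
Foxa3 (chr7:19023540-19023789, minus strand): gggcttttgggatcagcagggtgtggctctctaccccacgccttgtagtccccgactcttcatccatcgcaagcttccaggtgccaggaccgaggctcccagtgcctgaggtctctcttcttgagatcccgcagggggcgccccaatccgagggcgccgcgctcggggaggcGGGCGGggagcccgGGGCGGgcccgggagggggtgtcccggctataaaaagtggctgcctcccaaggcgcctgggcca
Foxa1 (chr12:57546112-57546361, minus strand): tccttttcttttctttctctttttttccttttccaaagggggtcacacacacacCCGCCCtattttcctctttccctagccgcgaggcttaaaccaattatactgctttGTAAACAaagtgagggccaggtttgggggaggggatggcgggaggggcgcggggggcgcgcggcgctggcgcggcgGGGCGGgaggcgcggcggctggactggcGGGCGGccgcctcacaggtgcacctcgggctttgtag
Foxa2 (chr2:148046970-148047219, minus strand): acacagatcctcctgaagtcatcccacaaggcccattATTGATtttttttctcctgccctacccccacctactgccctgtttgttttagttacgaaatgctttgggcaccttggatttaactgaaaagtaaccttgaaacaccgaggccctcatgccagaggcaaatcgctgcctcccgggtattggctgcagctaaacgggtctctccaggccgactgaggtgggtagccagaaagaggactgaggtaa
The *Foxa3* stretch held 2 GC boxes and 68.8% G and C. That of *Foxa1* held 3 GC boxes, 1 forkhead motif and 62.0% G and C, and that of *Foxa2*, 1 of 3 starts listed, held 1 ONECUT core, no GC box and 50.8% G and C. Over 32851 promoter stretches of this length the median G and C content was 52.4%, and 32.7% held the GC box, 3.17% the forkhead motif and 6.72% the ONECUT core. A match describes the letters only. The forkhead motifs TGTTTGC (4.30% of stretches) and TATTTAC (2.73%), the HNF4 motif CAAAGTCCA (0.384%), the C/EBP motif TTGCNNAA (9.56%), the HNF1 core GTTAAT (6.43%) and the E-box CACGTG (6.02%) were searched as well and had no match in these 3 stretches.

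*Foxa3* had 37.6, 46.3, 38.6 and 37.4 CPM in HSD livers 1 to 4, against 52.3, 68.9, 73.7, 55.7 and 74.7 CPM in Chow livers 1 to 5. Every HSD liver was below every Chow liver. The means were 39.97 ± 4.23 CPM on HSD and 65.1 ± 10.4 CPM on Chow (SD, n = 4 and 5), a fold of 0.615 and a log2 fold change of -0.70 (standard error, SE, 0.12, edgeR adjusted p = 0.00761), the 164th smallest p of all genes. In each of the 2 series of library labels, told by the first digit of the library label, the HSD livers also lay below the Chow livers. The difference in mean log2 CPM was -0.57 in the first series, with 2 HSD and 4 Chow livers, and -0.97 in the second, with 2 HSD and 1 Chow liver. The call stood with each of the 9 livers left out in turn (adjusted p from 0.00218 to 0.0337 in edgeR).

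In TPM the gap was smaller. *Foxa3* had 27.2, 32.2, 27.9 and 26.5 TPM in HSD livers, against 29.2, 44.4, 46.0, 39.1 and 48.7 TPM in Chow livers, so that Chow 1 fell among the HSD livers. The 4 other Chow livers stayed above them. With limma on log2(TPM + 0.1) the change was -0.52 and missed the threshold (adjusted p = 0.0614), on a scale where the median of all genes itself lay at 0.16. After TMM scaling of the TPM columns, added once the data had been seen, that median was 0.0091, the change of *Foxa3* was -0.67 and the call returned (adjusted p = 0.0181 from limma). The count per TPM of *Foxa3*, scaled per library, varied by 0.176% over the 9 livers.

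*Foxa1* and *Foxa2*, which act together in the onset of liver development, had no called difference. *Foxa1* had 13.9, 19.6, 14.1 and 22.6 CPM in HSD livers, against 8.67, 5.72, 15.5, 17.4 and 25.6 CPM in Chow livers. The Chow livers spanned the HSD livers on both sides, with Chow 1 and Chow 2 the lowest and Chow 5 the highest. The log2 fold change was 0.28 (SE 0.34, edgeR adjusted p = 0.668), and it ranged from 0.07 (without Chow 2) to 0.55 (without Chow 5) with 1 liver left out. It was -0.0091 without Chow 1 and HSD 4, 0.75 with limma on log2(TPM + 0.1) and 0.60 after TMM scaling of TPM, past the test in none. *Foxa2* had 14.9, 19.4, 13.9 and 30.1 CPM in HSD livers, against 20.05, 13.9, 20.02, 28.3 and 33.2 CPM in Chow livers, with HSD 4 above Chow 4 and below Chow 5. Its log2 fold change was -0.23 (SE 0.26, edgeR adjusted p = 0.650). With 1 liver left out it ranged from -0.52 (without HSD 4) to -0.07 (without Chow 5), with no call, and it was -0.56 without Chow 1 and HSD 4.

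The make-up of the FOXA group is a ratio within each liver and does not depend on library scaling. *Foxa3* supplied 59.5, 59.3, 60.4 and 43.4% of the summed FOXA TPM in HSD livers, against 66.0, 78.3, 68.6, 56.3 and 59.8% in Chow livers. *Foxa1* supplied 16.2, 16.7, 15.4 and 16.8% in HSD livers, against 6.67, 3.96, 8.78, 10.7 and 12.4% in Chow livers, without overlap. The share of *Foxa1* was nearly the same in the 4 HSD livers and varied widely on Chow. For the ratio of *Foxa3* to *Foxa1* plus *Foxa2*, the mean log2 value was 0.33 ± 0.47 in HSD livers and 0.97 ± 0.57 in Chow livers (SD), a difference of -0.64 with a two-sided exact permutation p of 0.127 (0.254 adjusted over 2 ratios tested), where 126 splits allow 0.0159 at the smallest. The ratio test therefore did not separate the diets.

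The share of *Foxa1* rests on TPM, which divides by transcript length, and this length did not overlap between the diets. GENCODE lists a coding transcript of 3191 bases and a processed transcript of 414 bases for *Foxa1*. Its count per TPM, scaled to a mean of 1 over the livers, was 0.864, 0.963, 0.915 and 0.998 in HSD livers, against 1.051, 1.053, 1.052, 1.052 and 1.053 in Chow livers. All HSD livers thus lay below all Chow livers, which differed little among themselves. Of 5333 genes whose length varied by at least 10%, 2.64% had diets that did not overlap, and 4 of the 9 factors varied that much (*Onecut1* by 27.2%, *Foxa2* by 23.7%, *Foxa1* by 18.9% and *Cebpa* by 10.3%), among which *Foxa1* was the only one without overlap. This comparison was made after the values had been seen. The CPM values of *Foxa1*, which are not divided by length, overlap between the diets, but they are levels and not shares of the FOXA group. The part of length in the share of *Foxa1* was not tested.

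**Figure D3:**
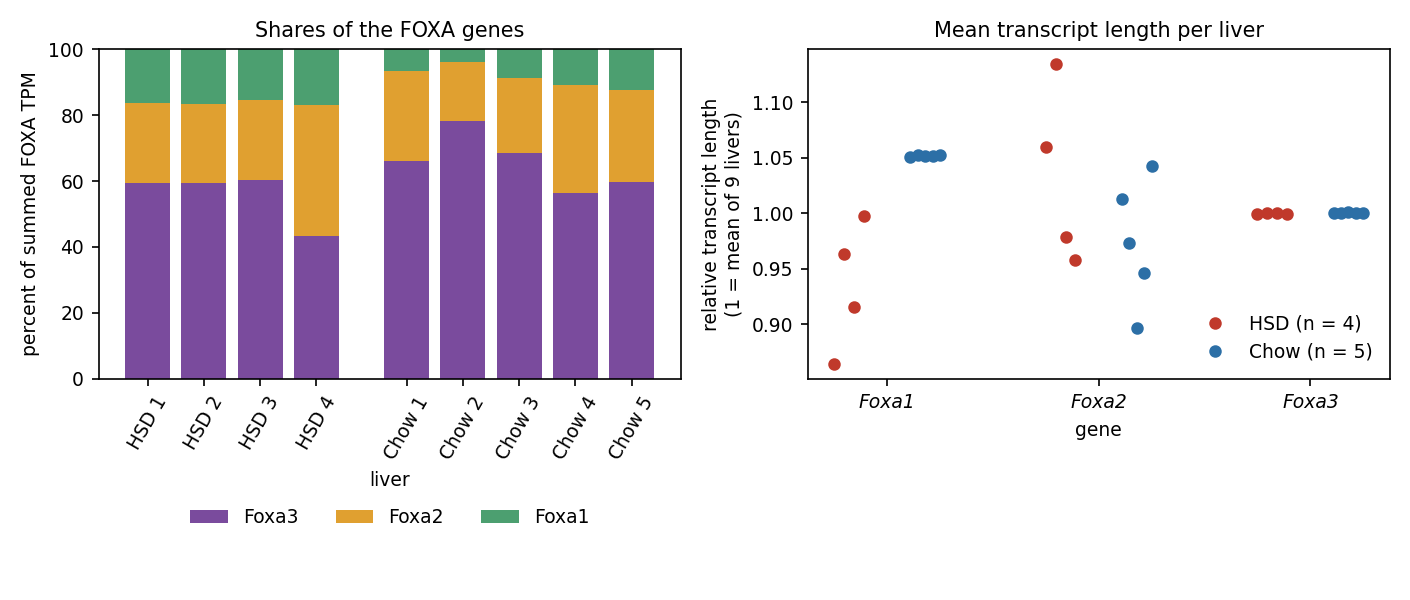
Left, percent of the summed FOXA TPM from *Foxa3* (purple), *Foxa2* (orange) and *Foxa1* (green) in each liver, HSD 1 to 4 then Chow 1 to 5, and right, the relative transcript length of the 3 genes (count per TPM, 1 at the mean of 9 livers) in HSD (red) and Chow (blue) livers. The *Foxa1* share is 15.4 to 16.8% in HSD livers and 3.96 to 12.4% in Chow livers, and its length is 0.864 to 0.998 in HSD livers and 1.051 to 1.053 in Chow livers.

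*Hnf4a* (chr2:163506808-163572910, plus strand, GRCm38) encodes the nuclear receptor at the centre of the network. It had 795, 716, 671 and 787 CPM in HSD livers, against 605, 741, 704, 537 and 590 CPM in Chow livers. HSD 1 and HSD 4 were above all Chow livers and the other HSD livers overlapped with them. The log2 fold change was 0.22 (SE 0.12, edgeR adjusted p = 0.270). In TPM the 2 diets did not overlap, with 252, 217, 212 and 244 TPM in HSD livers, against 148, 207.98, 192, 165 and 170 TPM in Chow livers. On that scale limma gave 0.40 (adjusted p = 0.0649), of which 0.16 is the shift of the median gene, and 0.25 (adjusted p = 0.217) after TMM scaling of TPM. The separation in TPM thus moved with the scaling of the libraries. *Hnf4a* varied little among livers, and its within-diet SD of 0.163 log2 CPM was below that of the median gene, 0.219. Its relative *Hnf4g* had 0.000 to 0.150 CPM in all libraries and was not tested.

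Genes listed as HNF4A targets were called in both directions. Of 20 tested genes from the study's list of HNF4A targets, 2 were higher, 3 were lower and 15 did not pass, with a median log2 fold change of 0.02 (all genes -0.0039). Over all genes tested, 3.44% were higher and 3.23% were lower. The list comes from the study's regulatory lists for human genes, matched to mouse by gene name, and is no independent evidence of a direction. Whether HNF4A controls these genes in these livers was not tested. *Acat2*, an acetyl-CoA acetyltransferase, had 117.5, 112, 131 and 151 CPM in HSD livers, against 60.3, 84.5, 58.8, 88.2 and 83.4 CPM in Chow livers. All HSD livers lay above all Chow livers (log2 fold change 0.77, SE 0.14, edgeR adjusted p = 0.00926). *Cyp7a1*, the rate-limiting enzyme of bile acid synthesis, had 13.7, 49.99, 35.8 and 21.3 CPM in HSD livers, against 30.4, 94.4, 83.0, 112 and 157 CPM in Chow livers. Chow 1 fell among the HSD livers. The log2 fold change was -1.66 (SE 0.43, edgeR adjusted p = 0.0415), and the call stood in 2 of the 9 fits with 1 liver left out (adjusted p from 0.00620 to 0.126). *Abcc6*, a transporter (-0.39, adjusted p = 0.0371), and *Nr1i2*, the xenobiotic receptor PXR (-0.35, adjusted p = 0.0472), were lower, with the call kept in 1 and 2 of these 9 fits. The apolipoprotein genes *Apoa1* (-0.30, adjusted p = 0.333) and *Apoa2* (-0.24, adjusted p = 0.183), the most abundant of the list, had no call.

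*Cebpa* (chr7:35119293-35121928, plus strand, GRCm38) encodes the C/EBP factor of resting hepatocytes, and *Cebpb* (chr2:167688915-167690418, plus strand) the one that inflammation and fasting signals raise. *Cebpa* had 281, 334, 221 and 281 CPM in HSD livers, against 276, 286, 254, 314 and 345 CPM in Chow livers. HSD 3 was the lowest liver and Chow 5 the highest, and the groups overlapped. This gave a log2 fold change of -0.08 (SE 0.13, edgeR adjusted p = 0.760). *Cebpb* had 23.3, 25.5, 12.1 and 16.7 CPM in HSD livers, against 28.3, 20.9, 20.2, 20.1 and 28.7 CPM in Chow livers. HSD 3 and HSD 4 were below all Chow livers, and HSD 1 and HSD 2 lay among them, for a log2 fold change of -0.28 (SE 0.20, edgeR adjusted p = 0.445) and of -0.13 without Chow 1 and HSD 4. The 2 low livers were both HSD livers of the second label series, in which the difference in mean log2 CPM was -1.01 against 1 Chow liver, whereas it was 0.14 in the first series, so the sign did not hold within both series. Of the 31-base sequences of *Cebpb*, 19.6% also occur in other gene models, chiefly *Tmem189* on the opposite strand, and its values are uncertain to that extent.

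The 2 C/EBP genes varied together, with r = 0.74 over the 9 livers in log2 CPM, 0.86 without Chow 1 and 0.48 in TPM, as a description of values that share libraries. The ratio of *Cebpa* to *Cebpb* TPM ranged from 6.86 to 11.1 in HSD livers and from 5.88 to 9.52 in Chow livers. The mean log2 ratio was 3.11 ± 0.34 in HSD livers and 2.92 ± 0.27 in Chow livers (SD), a difference of 0.19 (two-sided exact permutation p = 0.365, and 0.365 adjusted over 2 ratios). The acute phase genes, many of them C/EBP targets, were set beside *Cebpb*. Their mean log2 CPM, centred on the 9 livers, was -0.68 to -0.49 in HSD livers and -0.47 to 0.26 in Chow livers 2 to 5, but 3.06 in Chow 1. In Chow 1, *Cebpb* had 28.3 CPM, close to the 28.7 CPM of Chow 5, where the acute phase level was -0.47. *Cebpd*, another acute phase C/EBP gene, had 7.50 CPM in Chow 1 and 7.17 CPM in Chow 5. Of 21 acute phase genes 1, *Itih3*, was lower on HSD (log2 fold change -1.06, edgeR adjusted p = 0.0441, kept in 4 of 9 fits with 1 liver left out, adjusted p up to 0.125) and 20 did not pass. Their median log2 fold change was -1.08 (all genes -0.0039). Without Chow 1 the median was -0.41 and 3 of the 21 were lower.

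**Figure D4:**
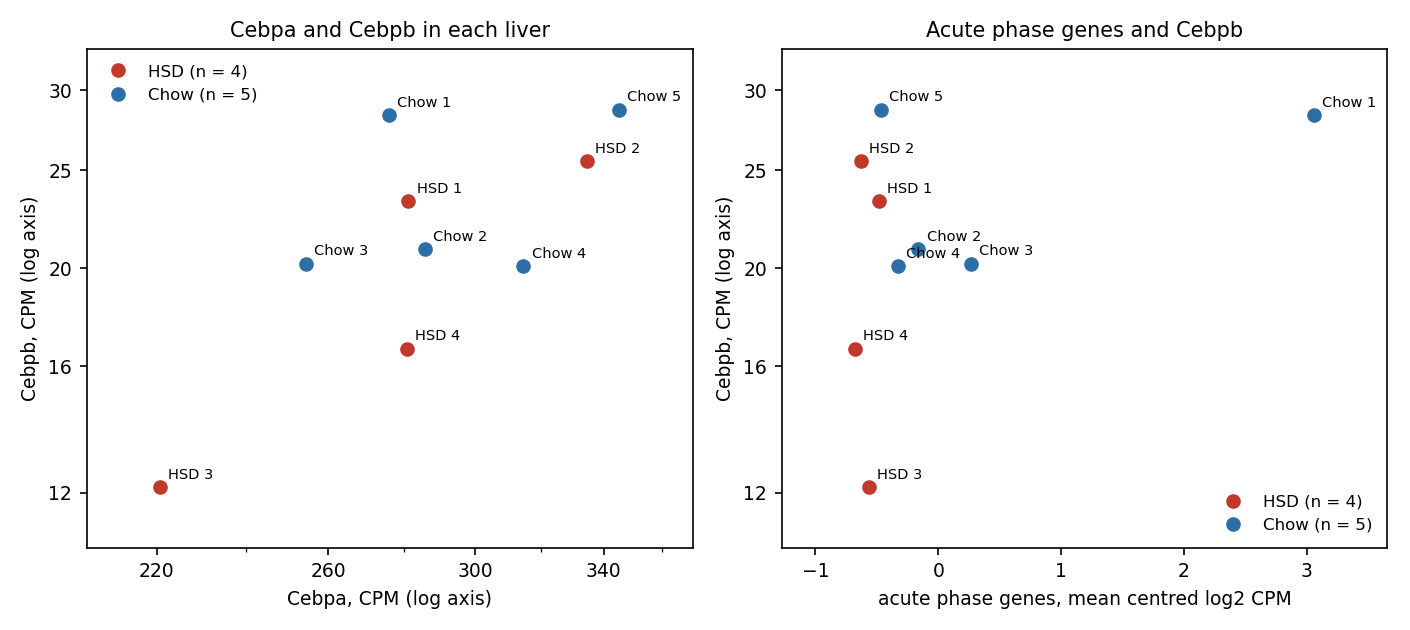
Left, *Cebpb* against *Cebpa* in CPM (log axes), and right, *Cebpb* in CPM (log axis) against the mean centred log2 CPM of 21 acute phase genes, for HSD (red) and Chow (blue) livers. Chow 1 lies far to the right, at 3.06, with *Cebpb* at 28.3 CPM, the level of Chow 5, and HSD 3 is lowest for both C/EBP genes.

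Among 9 relatives and dimer partners of the C/EBP factors, 1 was lower and 8 did not pass, with a median log2 fold change of -0.04 (all genes -0.0039). *Cebpe*, known from granulocytes, had 2.17, 3.04, 2.73 and 3.17 CPM in HSD livers, against 4.79, 3.97, 4.72, 7.72 and 7.33 CPM in Chow livers (log2 fold change -1.03, SE 0.23, edgeR adjusted p = 0.0227, kept in 6 of 9 fits with 1 liver left out). The neutrophil markers *S100a8* and *S100a9* were at or below 1.94 CPM in every library. The circadian factors *Tef* (-0.45, adjusted p = 0.330) and *Dbp* (-0.48, adjusted p = 0.536) were the most abundant of the list and had no call. Of 10 tested genes of glucose output and nitrogen disposal with C/EBP sites, 1 was higher and 2 were lower, with a median of -0.20. The higher one was *Ppargc1a*, described with the cofactors. *Asl* (-0.80, SE 0.19, edgeR adjusted p = 0.0290) and *Otc* (-0.48, SE 0.11, edgeR adjusted p = 0.0197), both enzymes of the urea cycle, were lower. *Ass1*, another urea cycle enzyme, had a log2 fold change of -0.76 (adjusted p = 0.0731), and *Cps1*, the first enzyme of the cycle, one of -0.18 (adjusted p = 0.628). Of the 9 fits with 1 liver left out, *Otc* kept its call in 5 and *Asl* in 3. Among 24 tested hepatocyte genes with classical sites for the factors, 1 was higher, 3 were lower and 20 did not pass (median -0.05). The 3 were *Otc*, *Cyp7a1* and *Serpina1a*, which encodes an alpha-1 antitrypsin (-0.38, adjusted p = 0.0475, kept in 1 of the 9 fits with 1 liver left out).

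*Onecut1* (chr9:74861921-74891781, plus strand, GRCm38) encodes the factor also named HNF6, and it was the most variable of the group. It had 9.90, 30.3, 30.99 and 63.8 CPM in HSD livers, against 11.0, 49.9, 37.5, 46.9 and 72.8 CPM in Chow livers. HSD 1 and Chow 1 were far below the rest, and HSD 4 and Chow 5 were the highest, so that each diet held a low and a high liver. Both low livers were of the first label series and both high livers of the second. In TPM the highest liver was 7.36 times the lowest. The within-diet SD of 1.07 log2 CPM was larger than that of 98.6% of all genes, against 93.9% for *Foxa1*, 86.0% for *Foxa2* and 31.8% for *Hnf4a*. The log2 fold change was -0.36 (SE 0.50, edgeR adjusted p = 0.708), and -0.78 with the label series as covariate (SE 0.44, edgeR adjusted p = 0.349). It was -0.06 without HSD 1, -0.88 without HSD 4 and -1.13 without Chow 1 and HSD 4, with no call in any (adjusted p from 0.0930 to 0.961). Its level is also uncertain because 53.0% of its 31-base sequences occur in other gene models, chiefly *Gm20649* on the same strand, which was not analysed here. The stretch before its start is given for the same motifs, marked as above, since this gene varied most.
Onecut1 (chr9:74861671-74861920, plus strand): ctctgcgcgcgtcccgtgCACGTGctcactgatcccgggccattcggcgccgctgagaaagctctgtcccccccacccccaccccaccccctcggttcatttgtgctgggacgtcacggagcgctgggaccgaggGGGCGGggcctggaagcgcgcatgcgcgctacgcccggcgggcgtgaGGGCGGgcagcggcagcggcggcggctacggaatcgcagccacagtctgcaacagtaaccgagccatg
It held 2 GC boxes and 1 E-box CACGTG, a motif that clock factors among others bind, with 71.6% G and C.

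*Onecut2* (chromosome 18, plus strand) encodes a related factor. It had 73.7, 60.01, 52.6 and 79.5 CPM in HSD livers, against 74.5, 47.2, 72.1, 76.3 and 63.9 CPM in Chow livers. The diets overlapped throughout (log2 fold change -0.0079, SE 0.15, 95% interval -0.34 to 0.33, edgeR adjusted p = 0.982). Its transcript has 16234 bases, and a CPM above that of *Onecut1* in all livers but Chow 2 and Chow 5 go with a lower mean TPM. *Onecut3* had 0.000 to 0.129 CPM.

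*Prox1* (chr1:190118035-190170714, minus strand, GRCm38) encodes a homeodomain factor of hepatocytes that also sets lymphatic endothelial identity. It had 184, 125, 120 and 84.5 CPM in HSD livers, against 141, 104, 116, 131 and 92.2 CPM in Chow livers. HSD 1 was the highest liver and HSD 4 the lowest, with the Chow livers between them. The log2 fold change was 0.14 (SE 0.19, edgeR adjusted p = 0.722). It was -0.09 without HSD 1, 0.29 without HSD 4 and 0.36 without Chow 1 and HSD 4 (adjusted p = 0.242), with no call. The lymphatic marker *Pdpn* was at 0.000 to 0.175 CPM in all libraries. With it, the 6 lymphatic endothelial markers listed summed to 79.4 to 95.5 CPM in HSD livers and 59.0 to 81.3 CPM in Chow livers. The larger part of each sum was *Reln*, with 52.2 to 62.5 CPM in HSD livers and 35.1 to 54.1 CPM in Chow livers. The 4 of these markers that were tested had a median log2 fold change of 0.25 and no call, and 3 of the 4 were above 0. Their part in the *Prox1* level was not tested.

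*Onecut1* and *Prox1* ran opposite to each other. Of the 36 pairs among the 9 genes this was the most negative, with Pearson's r = -0.89 and Spearman's rho = -0.88 over the 9 livers in log2 CPM, -0.88 once the mean of each diet was taken off, -0.93 without Chow 1 and -0.70 in TPM. These are descriptions across libraries of 1 experiment, chosen as the extreme of 36. The order held inside each diet at its ends. Among HSD livers, HSD 1 had the least *Onecut1* and the most *Prox1*, and HSD 4 the reverse. Among Chow livers, Chow 1 and Chow 5 held the same places. HSD 1 and Chow 1 were of the first label series, and HSD 4 and Chow 5 of the second. The part of the label series in the pair was not tested. The clock gene *Arntl* had 9.15, 4.22, 4.23 and 4.203 CPM in HSD livers, against 4.398, 1.63, 9.24, 1.35 and 1.56 CPM in Chow livers, and its part in the pair was not tested. *Foxa1* and *Foxa2* also varied together, with r = 0.70 over the 9 livers and 0.87 once the mean of each diet was taken off, while *Foxa2* and *Foxa3* had r = 0.23.

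**Figure D5:**
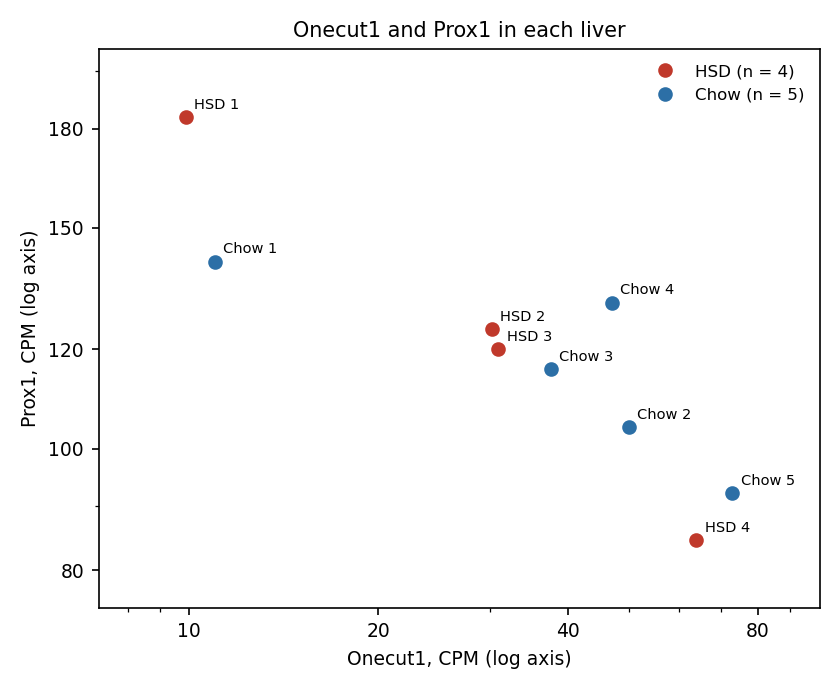
*Prox1* against *Onecut1* in CPM (log axes) in the 4 HSD livers (red) and 5 Chow livers (blue), each point 1 liver. HSD 1 and Chow 1 lie at the upper left, HSD 4 and Chow 5 at the lower right.

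Beyond the 9 genes, 14 other liver transcription factors were tested. Of these 1 was lower and 13 did not pass, where 6.67% of all genes were called in either direction. Their median log2 fold change was -0.01 (all genes -0.0039). An unadjusted p under 0.05 in edgeR was found for 6 of the 14 (23.7% of all genes). *Creb3l3*, a membrane-bound factor active in fasting, had 227, 253, 155 and 206.6 CPM in HSD livers, against 315, 269, 371, 304 and 315 CPM in Chow livers. All HSD livers lay below all Chow livers (log2 fold change -0.58, SE 0.14, edgeR adjusted p = 0.0314), though the call stood in 4 of the 9 fits with 1 liver left out (adjusted p up to 0.0926, without HSD 4). *Atf5* (0.51, adjusted p = 0.0893), the other abundant gene of the list, had no call. Among 8 other forkhead and cut genes tested, *Foxo1*, a forkhead factor that insulin holds outside the nucleus, was higher, with 58.3, 46.1, 55.7 and 51.2 CPM in HSD livers, against 44.4, 40.1, 37.2, 40.6 and 44.5 CPM in Chow livers (log2 fold change 0.35, SE 0.09, edgeR adjusted p = 0.0389, kept in 2 of these 9 fits). The list had a median of -0.0094, and its most abundant gene, *Foxo3*, had a log2 fold change of -0.20 (adjusted p = 0.582).

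Of 12 cofactors that these factors use, 2 were higher and 10 did not pass, with a median of 0.05. *Ppargc1a*, which encodes the coactivator PGC-1alpha of HNF4A and other receptors, had 14.1, 10.7, 12.4 and 16.3 CPM in HSD livers, against 5.30, 8.76, 5.58, 8.10 and 7.33 CPM in Chow livers. The diets did not overlap (0.93, SE 0.17, edgeR adjusted p = 0.00955, kept in 9 of 9 fits with 1 liver left out). *Crebbp*, which encodes the acetyltransferase CBP, was higher by 0.42 (SE 0.09, edgeR adjusted p = 0.0165, kept in 8 of the 9). The corepressor gene *Ncor1*, the most abundant of the list, had a log2 fold change of 0.23 (adjusted p = 0.257).

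The genes most like each factor over the 9 livers were not other members. *Foxa3* was most like *1300017J02Rik* (r = 0.98), the demethylase gene *Kdm5b* (0.97) and the carboxylesterase gene *Ces3b* (0.96). Of these *Kdm5b* (log2 fold change -0.53, adjusted p = 0.0208) and *Ces3b* (-0.76, adjusted p = 0.00275) were also lower on HSD, and *1300017J02Rik* was not past the test (-0.29, adjusted p = 0.0829). The choice by r over both diets favours genes that share the diet difference of *Foxa3*, so this direction is no separate result. With the mean of each diet taken off, r was 0.92 for *1300017J02Rik*, 0.91 for *Kdm5b* and 0.84 for *Ces3b*. For other factors the first gene was *Cmtm6* for *Hnf4a* (r = 0.95), *Akap17b* for *Foxa1* (0.97), *Inip* for *Foxa2* (0.93), *Sac3d1* for *Cebpa* (0.92), *Tmem238* for *Cebpb* (0.95) and *Dcaf7* for *Onecut2* (0.95). *Prox1* was most like *Nr1h4*, which encodes the bile acid receptor FXR, with r = 0.89. With 12090 genes to choose from and 9 livers that share their libraries, such values describe the highest of many.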

How the data were processed

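Poly-A RNA was sequenced by the authors in pairs of 51-base reads. The submitters' processing notes name kallisto and GRCm38, without a kallisto version. The authors deposited an estimated count per gene symbol, which is not scaled, and a TPM value, scaled by the authors per library. No source used here gives the annotation release or the strand setting. Of the deposited values above 0, 65.9% were whole within 0.001, of which 99.2% were even, so counts were also tested halved.

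Rounded estimated counts passed filterByExpr at a minimum count of 10 and a minimum total of 15. After TMM scaling, edgeR 4.0.16 (R 4.3.3) compared the diets with its quasi-likelihood test on 7 residual degrees of freedom, and genes with an adjusted p under 0.05 (Benjamini-Hochberg, 12091 genes) were called. The test was checked on simulated counts. CPM was computed with TMM factors, and its log2 with a prior count of 2. Ratios used TPM + 0.1 and an exact permutation test over livers. Counting error is contained in the spread between mice. No pair of libraries of 1 diet was a repeat (16 pairs, with chi-square per degree of freedom between 7.62 and 131), and the tables held 0 columns of other samples.

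The 9 genes and the gene lists were chosen with earlier results of these data known. Named were all 9 genes, from each list up to 4 genes past the test with the smallest p and up to 2 of the highest level, markers at 0, and the 3 genes most like each factor, of which the text gives some, and a few genes of this rule are not reported here. Alternatives were DESeq2 1.42.0, limma 3.58.1 (voom, and on log2 TPM with pseudocounts of 1 and 0.1), other scalings and filters, halved counts, covariates for label series and clock genes, the first label series alone, the replicate number as a block, an adjusted p under 0.01 and each liver left out. *Saa1*, *Cebpd*, *Arntl*, *Hnf4g*, *Onecut3* and *S100a8* with *S100a9* were named after their values had been seen. Gene positions and shared 31-base sequences are from GENCODE M21 on GRCm38, and promoter stretches from RefSeq.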

Additional observations from a re-analysis of the deposited data

Results flagged for a closer look

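Of 38 sets of 4 or 5 livers checked for a liver far from the others of its diet, 4 held one. Chance gives about 1 in 20. *Foxa3* in HSD 2 had a log2 CPM of 5.53, with the next HSD liver at 5.28 and the lowest at 5.23, still below every Chow liver. The log2 ratio of *Foxa3* to *Foxa1* plus *Foxa2* was -0.38 in HSD 4 and 0.54 to 0.60 in the other HSD livers. Without HSD 4 the difference between the diets in this ratio was -0.41 in place of -0.64. The acute phase genes had a mean centred log2 CPM of 3.06 in Chow 1, with 0.26 in the next Chow liver. The Kupffer cell markers stood at -1.09 in HSD 4 and between -0.07 and 0.01 in the other HSD livers.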

How the results depend on the processing

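The count of 0 factors higher stood under all 25 alternatives, and that of 1 lower, *Foxa3*, under 21. It was 0 with limma on log2(TPM + 1), log2(TPM + 0.1) or log2(TPM + 1) without a filter (*Foxa3* -0.51, -0.52 and -0.51) and in the first label series alone (-0.58, adjusted p = 0.202, with 2 HSD and 4 Chow livers), and with 1 liver left out it was 1 throughout. The other 8 factors passed in no alternative, while some changed sign. *Cebpa* lay at 0.037, 0.038 and 0.037 in the 3 TPM fits, 0.12 in the first label series, 0.0070 with the clock covariate and -0.18 to 0.018 with 1 liver left out. *Cebpb* was 0.13 in the first label series and *Foxa1* -0.0091 without Chow 1 and HSD 4, an alternative added after seeing the data. *Onecut2* was 0.060 with library totals, 0.13 with log2(TPM + 1) with or without a filter, 0.16 with log2(TPM + 0.1), 0.0094 with TMM-scaled TPM (also added), 0.0056 with the label series as covariate and -0.11 to 0.089 with 1 liver left out. *Prox1* ranged from -0.090 to 0.29 with 1 liver left out. The log2 ratio of *Cebpa* to *Cebpb* was -0.13 in the first label series. The cause was not tested.

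The numbers of genes higher and lower over all genes, 416 and 391, were 632 and 663 with DESeq2, 97 and 112 at an adjusted p under 0.01, 243 and 51 with log2(TPM + 1) unfiltered, 193 and 203 with TMM-scaled TPM, 15 and 19 in the first label series, 215 and 279 without Chow 1 and HSD 4, and 153 to 475 and 149 to 493 with 1 liver left out. Library totals gave 569 higher and 254 lower, and limma on log2(TPM + 1) and log2(TPM + 0.1) gave 475 and 448 higher with 101 lower each, so the split moved with the scaling. The median of all genes lay at 0.07, 0.14 and 0.16 in these fits. Changes of *Onecut1* and *Foxa1* inside their wide intervals were not excluded, and their within-diet SDs were 1.07 and 0.68 log2 CPM.

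Deviations of same-numbered livers correlated by -0.06 to 0.07, and only HSD 2 correlated best with its own number. No strong pairing by number was seen, and correlations of this kind cannot show whether a weak one exists. With the replicate block 220 genes were higher and 205 lower, with *Foxa3* at -0.64 (adjusted p = 0.0197), and the block changed no call of the 9 factors (*Foxa1* 0.64, adjusted p = 0.203). In the block the ratios differed by 0.16 (*Cebpa* to *Cebpb*) and -0.74 (*Foxa3*).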
